A study of Danio rerio with 15 samples.

Results

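A set of 103 transcripts was picked to differ between 2 sides of the zebrafish libraries. The sides did not follow the dose of dibutyl phthalate (DBP) in every library. They had been defined beforehand along a first principal component of these data. The members were selected on their own values, as CPM (counts scaled so that the assigned counts of each library have the same total). Every one of 7 libraries (10A, 10B, 50A, 50B, 50D, 100A and 100C, the high side) had to lie above every one of 7 others (0D, 0E, 5A, 5B, 5E, 10C and 100E, the low side). The number in each library name is the dose in μg/l, and the letter is the replicate. The ratio of the side means had to reach 1.5, the mean over the 14 libraries 5 CPM, and the length had to stay under 9000 bases. Of 46488 transcripts listed, 16927 met the limits on level and length, and 103 of these, or 0.608%, met the whole rule. With the sides exchanged, the same rule found 1206 transcripts, or 7.12%. With TMM or median-of-ratios scaling in place of column sums, the rule found 199 transcripts, with 102 of the members among them. Without 50D it found 164 and without 100C 173. The separation of the sides was the criterion of choice, so the values by side are given as a description, without a test.

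Wild-type embryos of the AB strain stayed for 120 h in fish water with 5, 10, 50 or 100 μg/l DBP, against fish water without DBP at 0 μg/l, no solvent being used at any dose. Each library came from the poly-A RNA of whole embryos at the protruding-mouth stage, 10 embryos to a pool, and the 3 pools of each dose with the best RNA were sequenced. The titles give 50 μg/l for a dose that the protocol text writes as 30. The high side thus held 2 of the 3 libraries at 10 μg/l, all 3 with 50 μg/l and 2 of the 3 with 100 μg/l. The low side held 2 of the 3 controls, all 3 libraries with 5 μg/l, and 1 library of each of the doses 10 and 100 μg/l.

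The third control, 0B, entered neither side. The study left out 1 control that stood apart in a principal component analysis. The labels mark 0D as this outlier, whereas the rule leaves out 0B. Over the other 14 libraries, 39890 transcripts had a count above 0 without 0B, 41337 without 0D and 41298 without 0E. The size of the study's own transcript list is the one found without 0B. In 0B, 34413 transcripts had a count above 0, against 31932 to 33384 in the other 14 libraries. The members were high in 0B, so they were low in 2 of the 3 controls, and the set is described here by its sides.

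DBP is a plasticiser of the phthalate family, and zebrafish embryos are a common model of its effects on development. A pool of whole embryos mixes every tissue of several animals, and a library counts the poly-A transcripts of all of them together. Fewer cells of a type and less RNA per cell cannot be told apart in such samples. The members carry Ensembl transcript identifiers, which the files and the reference tables used here do not pair with gene names. Of the 15 transcripts paired with a gene in the parts of the study's text used here, 0 were members. Members are therefore called by identifier in a few cases and otherwise by length. Of all lengths, 92.5% were multiples of 3 (95.1% among the members), so most lengths are read as coding lengths, in bases. For the rest, among them the 1163-base member, the lengths do not show this.

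Total assigned counts were 17.2 to 24.0 M on the high side, with a median of 21.3 M, and 20.2 to 28.0 M on the low side, with a median of 25.9 M. The 10 transcripts with most counts took 12.5 to 14.2% of counts on the high side and 10.6 to 12.6% on the low side. The transcripts of the exchanged rule took 22645 to 37401 CPM on the high side and 51333 to 70746 CPM on the low side. The part of depth and of these shares in the result was not tested. The median log2 ratio of the side means over all 16927 transcripts was -0.01 with CPM and 0.05 with TMM scaling.

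The members together were a small share of each library, and that share was larger on the high side. Their summed level was 6464 CPM in 10A, 6479.6 in 10B, 6061 in 50A, 6288 in 50B, 5330.5 in 50D, 6163 in 100A and 5076 in 100C. On the low side it was 3011 CPM in 0D, 2704 in 0E, 3229 in 5A, 3405 in 5B, 2874 in 5E, 3432 in 10C and 3587 in 100E. By this sum, 100C and 50D of the high-side libraries lay nearest to the low side, and 100E and 10C of the low-side libraries nearest to the high side. The median member, relative to its mean in 0D and 0E, gave another order on the low side. It was 1.147 in 5B and 1.104 in 5A, against 1.096 in 10C and 1.056 in 100E, over members with counts in 0D or 0E. By dose over the 14 libraries, the sum averaged 2858 ± 218 CPM in the 2 controls, and 3169 ± 270.4 CPM where the dose was 5 μg/l. It averaged 5458 ± 1755 CPM with 10 μg/l, 5893 ± 500.3 CPM with 50 μg/l and 4942 ± 1293 CPM with 100 μg/l (SD, n = 2 for the controls and n = 3 for each other dose). The SD was largest at 10 and 100 μg/l, the doses with libraries on both sides. The rule set these libraries apart for every member, so this spread follows from the choice of members.

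**Figure D1:**
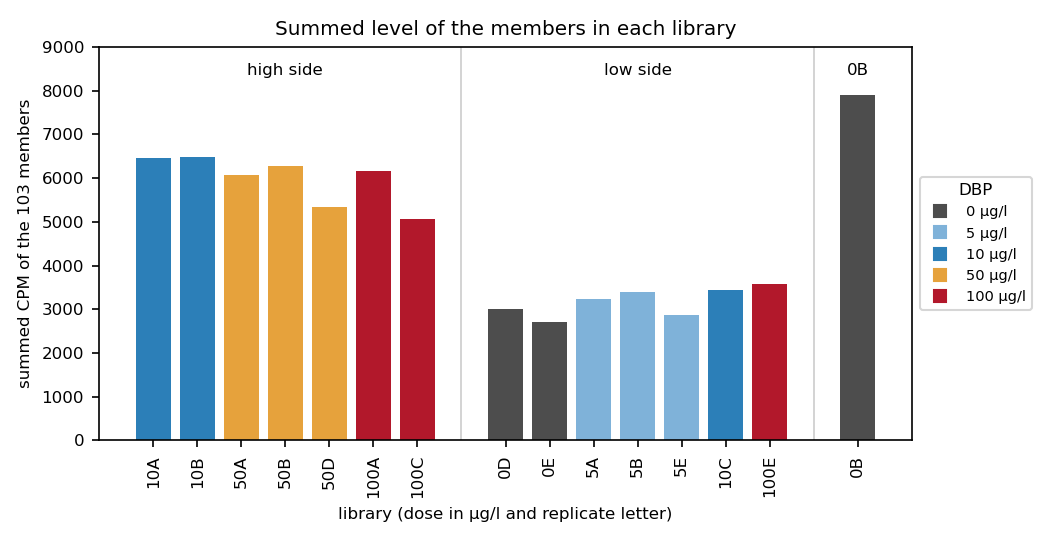
Summed CPM of the 103 members (y axis) in each of the 15 libraries (x axis, dose in μg/l and replicate letter), with bars coloured by dose and the high side left of the low side. The high-side bars reach 5076 to 6479.6 CPM and the low-side bars 2704 to 3587, and control 0B, which the rule left out, reaches 7891.

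Most members differed by less than a factor of 2. The ratio of the side means, high over low, was under 2 for 71 members, from 2 to under 5 for 20 and at least 5 for 12, with a median of 1.67 and quartiles of 1.56 and 2.12. For 51 members the lowest high-side library was less than 1.1 times the highest low-side one, so the sides stood close together. At the limit, the members with the smallest ratios were of 1083, 606 and 1449 bases, with ratios of 1.507, 1.509 and 1.512. Transcripts of 1302, 462 and 459 bases, with ratios of 1.499, 1.498 and 1.498, met every other condition and fell just outside. Without the ratio limit, 469 transcripts, or 2.77%, had every high-side library above every low-side one.

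Within a side, members also varied. The highest of the 7 high-side libraries was a median of 1.55 times the lowest over the members, and 1.49 times over the transcripts of the same level and length with counts in all 7. The lowest high-side library was 100C for 42 members and 50D for 36. The highest one was 10B for 38 members and 100A for 21. On the low side, 5B was highest for 23 members and 100E for 22. The dose with the highest mean was 10 μg/l for 37 members, 50 μg/l for 61 and 100 μg/l for 5, an order that the choice of sides partly fixes.

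**Figure D2:**
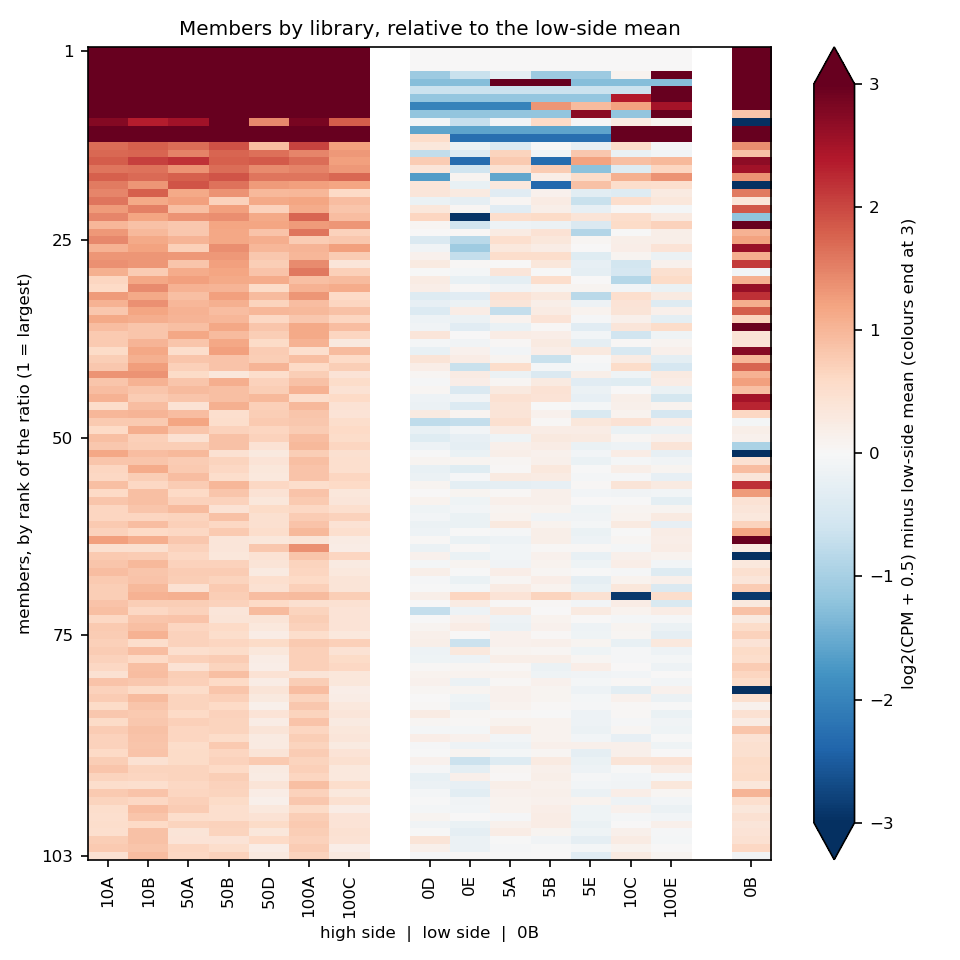
Level of each member (rows, by rank of the ratio) in each library (columns) as log2(CPM + 0.5) minus the mean of the 7 low-side libraries, with colours that end at 3 in both directions. The members with the largest ratios are dark red in every high-side column, most others are pale red there, and control 0B is mostly red with single blue rows.

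At one end of the set, 14 members had no counts in at least 1 low-side library, and 3 of these had none in any of the 7. The other 89 had counts in all 14 libraries, with a median ratio of 1.62 and a largest ratio of 5.60. Of the 12 members with a ratio of at least 5, 11 had a low-side library at 0. Of the members, 13.6% had a 0 in any of the 14 libraries, against 3.32% for the exchanged rule and 3.18% of all transcripts of that level and length. These zeros of the members all lay on the low side, where the rule asked for low values, so the shares are a description.

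ENSDART00000003845.9, a transcript of 1563 bases, had the largest ratio. On the high side it had 40.8 CPM in 10A, 35.7 in 10B, 7.58 in 50A, 26.9 in 50B, 176 in 50D, 24.5 in 100A and 170 in 100C, and no counts in the 7 low-side libraries. Allowing for counting error only, the high-side mean of 68.7 CPM was at least 4017 times the low-side mean. This is no bound for single libraries, such as 50A. The upper limit taken for the low side was 3 counts over its summed counts, or 0.0171 CPM. The counts of this transcript were not whole, so some reads fit several transcripts. The limit leaves out how such reads were divided and the spread between the pools. The highest high-side library had 23.2 times the level of the lowest, the widest spread among the members, and 50D and 100C, which were lowest for most other members, were highest here. The 2265-base transcript and one of the pair of 876-base members were the other 2 with no low-side counts. The 2265-base transcript had 12.7 to 47.9 CPM on the high side, with a median of 30.1 and its lowest values in 100C and 50D. The 876-base one had 5.81 CPM in 10B and 16.3 CPM in 50B, the ends of its high-side range.

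The 537-base transcript was unevenly spread over the doses of the high side. It had 416 CPM in 10A and 461 in 10B, then 229, 47.8 and 106 in 50A, 50B and 50D, and 70.5 and 25.4 in 100A and 100C. On the low side it had 0 to 0.65 CPM in 6 libraries and 18.2 CPM in 100E. Its ratio was 69.82, with 540.3 counts over the whole low side. Of the 103 members, 24, or 23.3%, had both 10A and 10B above the other 5 high-side libraries, against 12.6% of all transcripts of that level and length. For 1 member, or 0.971%, both lay below them, against 7.56%. The rule sets a lower limit on all 7 libraries, so these shares are a description.

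The 633-base transcript was at one level in 5 high-side libraries, 96.7 to 121 CPM, and at 37.5 and 44.7 CPM in 50D and 100C. On the low side, 5A and 5B had 10.15 and 10.46 CPM and the other 5 libraries had no counts. The 1260-base transcript had 13.3 to 60.4 CPM on the high side, and 11.3 CPM in 100E alone among the low-side libraries. The 2982-base transcript had 9.98 to 21.9 CPM on the high side and was counted in 2 low-side libraries, with 6.82 CPM in 5E and 9.60 in 100E. The 3324-base transcript, at 37.6 to 113 CPM on the high side and 8.15 to 20.8 CPM on the low side, had the largest ratio, 5.60, among members counted in all 14 libraries.

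**Figure D3:**
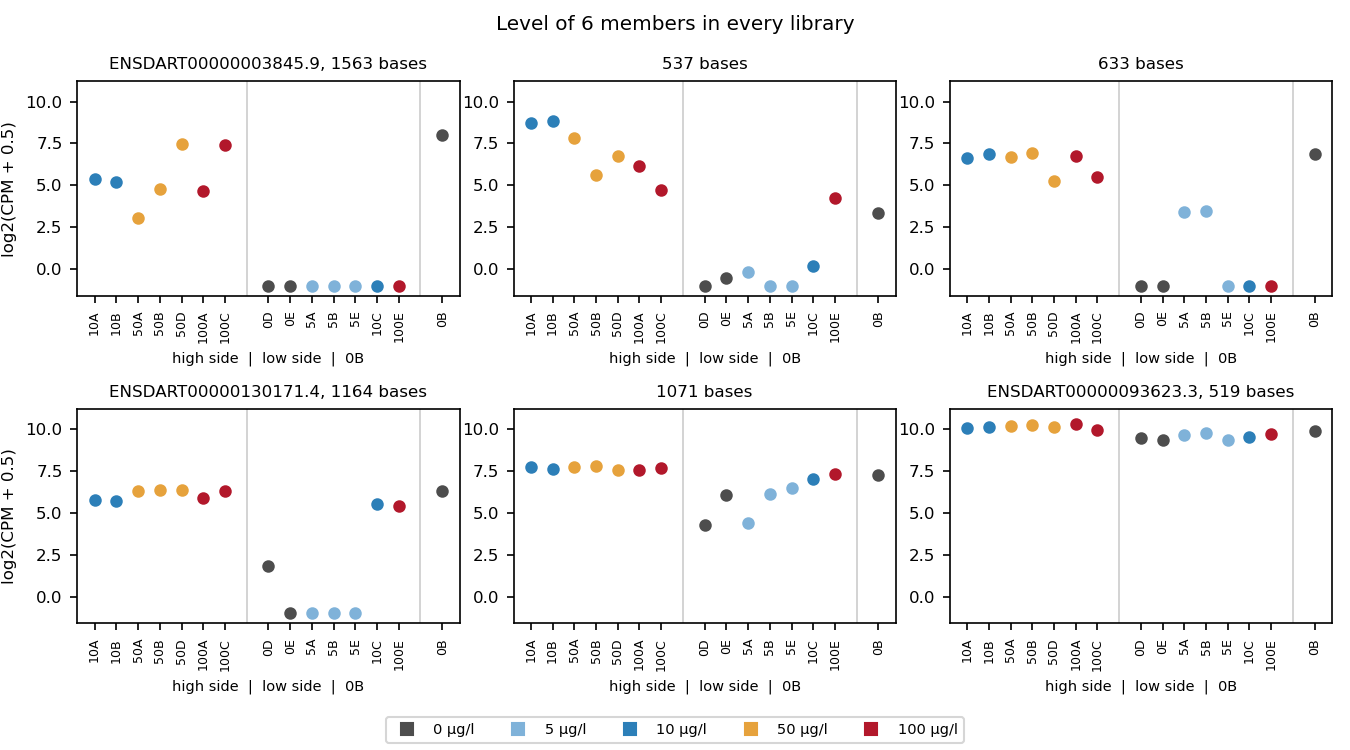
Level of 6 members as log2(CPM + 0.5) (y axis) in each library (x axis), coloured by dose, with the high side left of the low side and control 0B at the right. A point at -1 is a library with no counts, as in all 7 low-side libraries of the 1563-base transcript, while the 519-base transcript lies near 10 in every library.

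Within the low side, the 10C and 100E libraries were exposed to more DBP than the other 5. Both lay above all 5 libraries at 0 and 5 μg/l for 11 members, or 10.7%, against 5.18% of all transcripts of that level and length. Both lay below all 5 for 3 members, or 2.91%, against 8.45%. The order inside the low side was not a criterion, but the rule sets an upper limit on all 7 libraries, so these shares are a description.

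One of these 11 was ENSDART00000130171.4, of 1164 bases. It had 45.8 CPM in 10C and 42.4 in 100E, against 3.01 CPM in 0D and no counts in 0E and the 3 libraries at 5 μg/l. The high-side libraries had 51.5 to 82.4 CPM, so 10C and 100E stood much nearer to the high side than to the other low-side libraries. The 2778-base transcript had the same order, with 18.3 and 27.5 CPM in 10C and 100E, no counts in the other 5 and 28.0 to 50.8 CPM on the high side. The 909-base transcript had 5.28 and 11.3 CPM in 10C and 100E, no counts in the other 5 and 18.7 to 34.4 CPM on the high side. The 1071-base transcript had 130 and 158 CPM in these 2 libraries and 18.8 to 90.4 CPM in the other 5, with 188 to 228 CPM on the high side. For the other 92 members, 10C and 100E did not both stand above the 5 libraries at 0 and 5 μg/l.

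By share of counts, few members carried most of the sum. The 5 with the most counts held 50.6% of all member counts, and 7 members had a mean above 100 CPM while 66 were under 20 CPM. ENSDART00000093623.3, of 519 bases, had the most counts. It had 996 to 1291 CPM on the high side, with a median of 1135, and 652 to 871 CPM on the low side, with a median of 759, a ratio of 1.52. By dose it averaged 677 ± 34.8 CPM in controls 0D and 0E, and 782 ± 113 CPM with 5 μg/l DBP. The mean was 993 ± 204 CPM with 10 μg/l, 1176 ± 49.6 CPM with 50 μg/l and 1041 ± 230.4 CPM with 100 μg/l (SD, n = 2 for the controls and n = 3 for each other dose). The 687-base transcript followed, with 731 to 1013 CPM on the high side and 419 to 670 CPM on the low side. Without these 2, the members summed to 3310 to 4556 CPM on the high side and 1632 to 2139 CPM on the low side.

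The next in counts were of 399, 1163 and 726 bases. One of the pair of 399-base members had 367 to 533 CPM on the high side and 223 to 353 CPM on the low side, a ratio of 1.67. The 1163-base transcript had 184 to 275 CPM on the high side and 66.2 to 158 CPM on the low side, a ratio of 2.11. The 726-base transcript had 117 to 245 CPM on the high side and 61.7 to 116 CPM on the low side, and its lowest high-side library, 100C, was 1.01 times its highest low-side one, 5B.

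Per length, the order of the members differed. The highest mean TPM, counts per effective length scaled to a common total per library, was 3134 for the 177-base transcript, with 3772 to 4578 TPM on the high side and 1655 to 3154 on the low side. Salmon's effective length, its estimate of the positions where a fragment can start, was 6.00 bases for this transcript, so its TPM rests on few positions. The 519-base transcript had 809 to 1015 TPM on the high side and 379 to 770.0 TPM on the low side, with a mean effective length of 422 bases. That effective length ran from 326 to 570 bases over the 14 libraries, so the estimate can exceed the length, and its spread enters the TPM. In TPM, 81 of the 103 members kept sides that did not overlap. Applied to TPM with the same numbers, the rule chose 62 transcripts, 36 of them members by CPM. A mean of 5 TPM was reached by 50 of the 103 members.

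Length entered the rule only as an upper limit, and the following is a description without a test. The median length of the members was 1116 bases, against 1587 for the exchanged rule and 1452 for all transcripts of that level and length. Of the members, 14.6% were shorter than 500 bases, against 6.05% for the exchanged rule and 8.28% overall. A count that is not whole, which Salmon gives where a read fits several transcripts, was found for 81 members, or 78.6%, against 48.9% for the exchanged rule and 56.5% overall. For those 81 the level depends on how such reads were divided. The median log2 ratio of the effective lengths, high over low, was -0.02 for the members and -0.01 overall.

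The 3 libraries at 5 μg/l and controls 0D and 0E all lay on the low side. The contrast of these 5 libraries was not a criterion, but the rule set an upper limit on all 5. The third control, 0B, was left out of this contrast. With edgeR's quasi-likelihood test over 14 libraries and Benjamini-Hochberg adjustment, 1 of 32350 transcripts passed an adjusted p of 0.05, or 0.00309%, and 0 of the 103 members did. At an unadjusted p under 0.05 there were 728 transcripts, or 2.25%, and 5 members, 4 higher and 1 lower at 5 μg/l. Fits over 14 libraries also take their spread from doses with libraries on both sides, which the rule had set apart for every member. This can raise the p-values of members, so these fits cannot show that members did not differ. With only the 5 libraries, edgeR called 0 of 94 members tested. At an unadjusted p under 0.05 it found 7 members, all higher at 5 μg/l, and 1033 of 30350 transcripts. At an adjusted p of 0.05, limma called 0 members and 5 transcripts in all, or 0.0155%, while DESeq2 called 4 members, or 3.88%, and 152 transcripts in all, or 0.470%. By edgeR without 0D, 6 transcripts, or 0.0178%, were called and 0 of them were members, and without 0E 24, or 0.0714%, were called, with 1 member. The fitted log2 difference was above 0 for 68 members and below 0 for 29, with a median of 0.13, against 0.01 over all transcripts tested. The other 6 had no counts at either dose. For the transcripts of the exchanged rule the median was -0.13, so a shift between these doses is not particular to the members. The direction for the members depended on the fit. It was kept by limma and DESeq2, with 67 members higher and 36 lower in each, the 6 members without counts at either dose included. With only the 5 libraries, 63 were higher and 31 lower, and without 0D 76 and 20. In some fits it turned. With 0B among the controls, 22 members were higher and 81 lower at 5 μg/l, with a median of -0.23, against 0.00 over all transcripts tested. With the replicate letter as a block, 35 were higher and 68 lower, again with these 6 included. The median was -0.11, against 0.02. Without 0E it did not turn but was weaker, with 52 higher and 45 lower and a median of 0.01.

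All 3 libraries at 5 μg/l lay above both controls for 15 members, or 14.6%, against 11.0% of all transcripts of that level and length, and all 3 lay below for 5 members, or 4.85%, against 7.78%. ENSDART00000182324.1, of 1077 bases, had the smallest unadjusted p. It had 9.54, 6.96 and 8.63 CPM in 5A, 5B and 5E, against 3.76 and 3.90 CPM in 0D and 0E, so the doses did not overlap. Its log2 fold change was 1.16 (adjusted p = 1 by edgeR's quasi-likelihood test). DESeq2 called it (adjusted p = 0.00627), and over the alternatives its adjusted p lay between 0.00627 and 1. ENSDART00000124336.4, of 1335 bases, had no counts in 5A, 4.46 CPM in 5B and 3.35 CPM in 5E, against none in 0D and 0E (adjusted p = 1 by edgeR and 0.00931 by DESeq2, the ends of its range over the alternatives). ENSDART00000130171.4 was the other one of the 3 smallest, with no counts at 5 μg/l against 3.01 CPM in 0D and none in 0E (adjusted p = 1 by edgeR). DESeq2 called it as lower at 5 μg/l (adjusted p = 0.00575), as did edgeR without 0E (adjusted p = 0.00310, the lowest over the alternatives, against a highest of 1), which leaves 0D as the only control. The 2982-base transcript was the other member that DESeq2 called (adjusted p = 2.59e-07), with 6.82 CPM in 5E and no counts in 5A, 5B, 0D and 0E, and edgeR gave it an adjusted p of 1. The last 3 rest on libraries at 0, so no fold change is read from them.

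Over the dose series, edgeR's test of a quadratic trend on the dose rank called 295 of 32350 transcripts at an adjusted p of 0.05, or 0.912%, and 8 of the 103 members, all higher at 100 than at 0 μg/l in the fit. The sides of the rule follow dose in all but 10C and 100E, so the rule used this contrast and nothing is read from the count.

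Control 0B was not used to choose the members, and it carried most of them at a level like that of the high side. The summed level of the members was 7891 CPM in 0B, against 3011 and 2704 CPM in 0D and 0E. The 687-base transcript alone gave 2348 CPM of the sum in 0B. The median over the members of the level in 0B was 0.94 times the high-side mean. Of the 103 members, 93, or 90.3%, were higher in 0B than in both other controls, against 36.4% of all transcripts of that level and length. The rule kept 0D and 0E below the high side for the members but not for all transcripts, so these shares are a description. The value in 0B was at or above the lowest high-side library for 75 members, between the sides for 10, and at or below the highest low-side library for 18. It was above all 14 libraries for 25 members, or 24.3%, against 6.56% overall. The transcripts of the exchanged rule also lay in 0B as on the high side, so this placement is not particular to the members. Of them, 99.2% were lower in 0B than in both other controls, which that rule kept high. For 79.4% the value in 0B was at or below the highest high-side library, and their sum in 0B was 29987 CPM. Control 0B is 1 library, and no test can be made of it.

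Individual members differed in 0B. The 9 members with no counts in 0D and 0E all had counts in 0B. ENSDART00000003845.9 had 254 CPM in 0B, above every high-side library, and the 633-base transcript had 118 CPM. The 687-base transcript had 2348 CPM in 0B, against 539 and 419 CPM in 0D and 0E, and this was 2.32 times its highest high-side value. The 177-base transcript had 331 CPM in 0B, against 39.8 and 33.8 CPM in 0D and 0E.

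Other members went the other way in 0B. No counts were found for 6 members, of which 5 had counts in all 14 other libraries. One of these was the 3141-base transcript, with 98.7 to 179 CPM on the high side and 68.0 to 93.1 CPM on the low side. Another was the 3324-base transcript, at 0 in 0B, against 12.7 and 8.15 CPM in 0D and 0E. The more abundant 399-base member had 138 CPM in 0B, against 244 and 223 CPM in 0D and 0E. The 537-base transcript had 9.53 CPM in 0B, below the high side and above 0D and 0E.

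**Figure D4:**
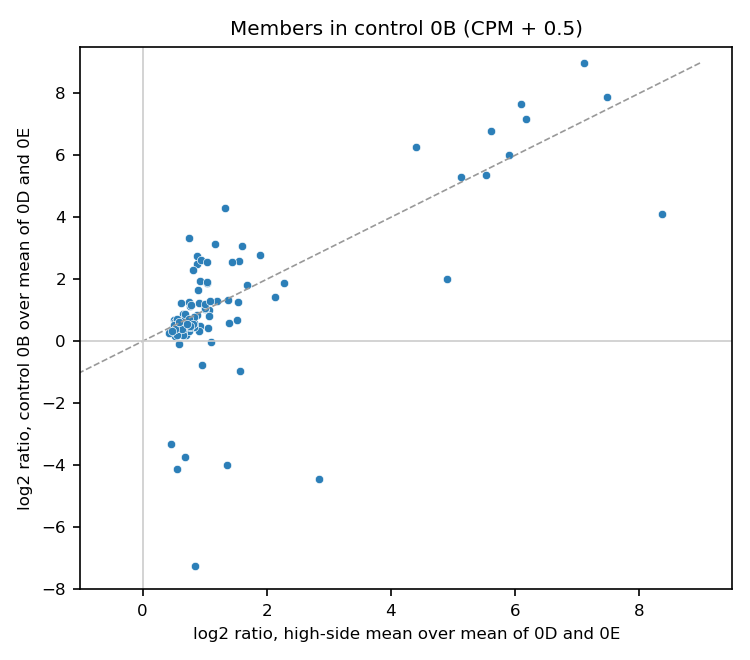
Log2 ratio of each member in control 0B over the mean of controls 0D and 0E (y axis) against the log2 ratio of the high-side mean over the same controls (x axis), both from CPM + 0.5, with a dashed line where they are equal. Of the 103 members, 93 were higher in 0B than in both other controls, which the rule kept on the low side. The 6 members with no counts in 0B lie far below 0.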

How the data were processed

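The members and every list and test here were chosen with earlier results of these data known. The authors trimmed reads with Trimmomatic and quantified them with Salmon 1.5.1 on the zebrafish reference transcriptome. They deposited estimated counts per transcript, not scaled for depth or length, in a table of 15 libraries. Their deposited TPM divide these counts by the effective length and bring each library to one total, and lengths and effective lengths are in bases as Salmon wrote them. From the estimated counts, CPM were computed on column sums without 0B. A count of 0 allows up to 3 counts, for counting error only, and the 2 controls and 3 libraries at other doses limit precision.

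Counts rounded to whole numbers were tested with edgeR 4.0.16 (quasi-likelihood test, TMM, filterByExpr, Benjamini-Hochberg, threshold 0.05), after a test on simulated data. The simulated data had no sides and the same dispersion for every transcript, so they do not show how the test behaves on these libraries. Alternatives were limma 3.58.1 on log2(CPM + 0.5), DESeq2 1.42.0, other scalings, filters and libraries, and the replicate letter as a block. The labels call the pools replicates, and p-values measure the spread between them. R 4.3.3, Python 3.11.15, numpy 2.4.6, pandas 2.3.3 and matplotlib 3.10.9 were used.

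Named members were those with the 8 largest ratios, the 8 largest mean CPM, the 6 widest gaps between the sides, the 3 transcripts on each side of the ratio limit, and the 3 smallest p at 5 against 0 μg/l. Few identifiers are printed, because they are not paired with gene names. Members with both 10C and 100E above the other low-side libraries, and those at the extremes in 0B, were named after their values were seen. So was the 2982-base transcript, which had rank 9 by ratio. Gene lists and cell type markers were not analysed here.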

Additional observations from a re-analysis of the deposited data

Results flagged for a closer look

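Control 0B lies outside the main comparisons and stood apart from the other controls. The summed level of the members was 7891 CPM in 0B, above 3011 CPM in 0D and 2704 CPM in 0E and above all 14 libraries used. The 687-base transcript alone gave 2348 CPM of this, and the median member in 0B had 0.94 times its high-side mean. Of the 103 members, 93 were higher in 0B than in both other controls, and 85 when TPM was used, an alternative chosen after seeing the data. The rule kept 0D and 0E low for every member, so these counts are a description. More transcripts had counts in 0B (34413) than in any other library, and 59.6% of the counts above 0 in it were not whole, against 52.9 to 56.2% elsewhere. Their part in the result was not tested.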

How the results depend on the processing

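The number of members followed the rule's settings. It was 199 with TMM scaling and 199 with median-of-ratios scaling (102 shared with the 103 in each), and 62 with TPM. It was 168 with no limit on mean CPM, 159 with a mean of at least 1, 351 at the lower ratio limit tried, 32 at a ratio of 2 and 469 with no ratio limit. With 0B added to the low side, 32 transcripts were found, 25 of them members. Leaving out 1 library gave 98 to 173 members, with 164 without 50D and 173 without 100C. Chosen after seeing the data, the rule without 10C and 100E gave 168 and without 50D and 100C 385. The members at or below the highest low-side value in 0B were 18, and 36 with TPM.

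For 5 against 0 μg/l, transcripts called were 5 with limma, 152 with DESeq2 (4 of them members), 0 with 15 libraries, 0 with only the 5 libraries at these doses, and 1 to 24 when 1 library was left out, the most without 0E, with more than 1 also without 0D, 5B, 5E, 10A, 10B, 10C or 50D. With 15 libraries, 22 members were higher and 81 lower at 5 μg/l, and the fitted log2 difference of ENSDART00000124336.4, which rests on libraries at 0 and is no measured fold change, was -1.46, against 8.87 with 14 libraries. For the quadratic trend, 534 were called with limma, 3486 with DESeq2, 162 with no filter on low counts and 56 to 793 when 1 library was left out, the least without 100C and the most without 100E, and 13 of these 14 omissions moved the count by over 1.5 times.

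Replicate letters were not taken as pairs. Of 14 same-letter pairs, 7 had a correlation of deviations above 0.1 (range -0.07 to 0.25). Their median was 0.09, against -0.03 for pairs of different letters. Every library with the letter E lay on the low side, so letter and side were partly tied. With the letter as a replicate block, 0 transcripts were called for 5 against 0 μg/l and 12 for the trend. In that fit 35 members were higher and 68 lower at 5 μg/l, against 68 and 29 without the block. The counts with the block include the members without counts at either dose, and those without it leave them out.

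The median ratio of the members (1.63 to 1.70 when 1 library was left out, 1.73 with TPM and with TMM) stayed near the 1.67 reported. The same members were used in each of these settings, and they had been chosen for their ratio in these same libraries. Their choice largely fixed this closeness beforehand, so it is a description and no test of the ratio. On the first principal component without the members, all 14 libraries lay on their own side, and also with the members or with the 500 most variable transcripts. The sides had been defined along such an axis. With the 500 most variable transcripts, 100E scored -2.73 and 10C -15.7, against -36.8 to -29.6 in the other low-side libraries. The high side scored 20.3 to 33.5 there. With 2 controls and 3 libraries per dose, small differences in low counts cannot be resolved.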
